A study of Mus musculus with 22 samples.

Results

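Muscle-rich spots were the small regions of the 3-month mammary sections that carried transcripts of skeletal muscle. They were compared, within each section, with all other spots under tissue. A spot counted as muscle-rich when at least 3 of its unique molecular identifiers (UMIs, each standing for 1 captured molecule) and at least 3% of all its UMIs came from 6 genes of the fast muscle fibre, Ckm, Atp2a1, Myh4, Mylpf, Pvalb and Acta1, summed. The rule found 116 such spots among 8473 at 3 months, and among 24815 in all 4 sections of the series. The mice of the study were virgin females of the inbred strain C57BL/6J, and mammary glands taken at 3 months were compared with glands taken at 18 months. It used single-cell RNA sequencing, single-nucleus chromatin accessibility and spatial transcriptomics, and only the spatial sections were used here. Per the labels, the fixed and paraffin-embedded tissue was read on Visium CytAssist slides, on which probes report transcripts at barcoded positions of a hexagonal grid. Both 3-month sections (replicates 1 and 2, here section 1 and section 2) entered the comparison, and the 18-month sections are given beside the counts. No treatment or allele is named for any group. Nothing in the labels says that the sections came from separate animals, so the spread between them may be technical. A spot can hold several cells, so fewer cells of a type in a spot and less RNA per cell cannot be told apart.

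Skeletal muscle fibres are long multinucleate cells packed with sarcomeres, in which myosin heads pull on actin after calcium binds troponin. Fibres are classed by the heavy chain of their myosin: Myh4 (type IIB) in the fastest glycolytic fibres, Myh1 (IIX) and Myh2 (IIA) in fast fibres with more oxidative metabolism, and Myh7 in slow fibres. The mouse mammary gland grows within fat pads beneath the skin, which lie against thin sheets of skeletal muscle of the skin and body wall. The 6 genes of the rule serve the fast fibre. Ckm is the creatine kinase that buffers ATP, Atp2a1 the calcium pump of the sarcoplasmic reticulum, Myh4 the IIB heavy chain, Mylpf its regulatory light chain, Pvalb the calcium-buffering parvalbumin and Acta1 the skeletal actin.

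Of the 3 fast heavy chain genes, Myh1 and Myh2 differed most between patches of muscle, as described below. The upstream sequences of Ckm and of these 3 heavy chain genes are shown for orientation. They are the 250 bases before the RefSeq start (GRCm38.p6), 5′ to 3′, and all 4 genes lie on the + strand, Ckm at chr7:19410844-19411093, Myh4 at chr11:67237562-67237811, Myh1 at chr11:67199852-67200101 and Myh2 at chr11:67170777-67171026. Capitals mark matches, on either strand, to the E-box CAGCTG bound by myogenic factors, to TATAAA, and to the MEF2 and CArG motifs, which are degenerate 10-base motifs given here by name.
Ckm: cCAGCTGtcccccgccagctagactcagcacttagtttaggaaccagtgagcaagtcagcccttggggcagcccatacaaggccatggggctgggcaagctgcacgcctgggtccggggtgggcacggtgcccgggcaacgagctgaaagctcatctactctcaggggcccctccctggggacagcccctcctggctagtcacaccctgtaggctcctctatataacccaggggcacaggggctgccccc
Myh4: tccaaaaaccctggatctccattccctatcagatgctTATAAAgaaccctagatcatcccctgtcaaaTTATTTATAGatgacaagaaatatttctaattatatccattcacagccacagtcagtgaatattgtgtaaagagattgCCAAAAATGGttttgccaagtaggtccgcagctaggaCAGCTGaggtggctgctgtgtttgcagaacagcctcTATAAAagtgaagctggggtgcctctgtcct
Myh1: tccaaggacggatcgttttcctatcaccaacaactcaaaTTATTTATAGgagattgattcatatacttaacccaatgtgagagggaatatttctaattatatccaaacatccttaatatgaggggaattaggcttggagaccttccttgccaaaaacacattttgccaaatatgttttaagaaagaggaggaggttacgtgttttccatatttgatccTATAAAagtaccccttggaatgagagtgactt
Myh2: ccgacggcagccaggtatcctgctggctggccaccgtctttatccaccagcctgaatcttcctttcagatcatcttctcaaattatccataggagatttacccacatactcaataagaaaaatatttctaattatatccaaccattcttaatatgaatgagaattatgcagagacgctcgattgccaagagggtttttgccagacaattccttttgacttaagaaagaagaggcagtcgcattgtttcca
The Ckm window held 1 CAGCTG, starting 249 bases before the start. The Myh4 window held 1 CAGCTG (67 bases before the start), 1 CArG match (104), 1 MEF2 match (182) and 3 TATAAA matches (213, 179 and 31), of which the one at 179 overlapped the MEF2 match. The Myh1 window held 1 MEF2 match (211) and 2 TATAAA matches (208 and 32), of which the one at 208 overlapped the MEF2 match. The Myh2 window held none of these matches, which says nothing of bases outside the window. CAGCTG stood in 13% of 32851 RefSeq promoter windows of this length and in 20 of 53 (37.7%) windows of genes of the rule and of the sarcomere and calcium lists. The shares were 2.92% and 18.9% for MEF2, 1.47% and 9.43% for CArG and 12.4% and 20.8% for TATAAA. A match is a description of the letters, not a measured binding site.

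Section 1 had 55 muscle-rich spots of 4403 (1.25%, exact 95% interval 0.942 to 1.62) and section 2 had 61 of 4070 (1.50%, 1.15 to 1.92). The 18-month sections had 0 of 6597 and 0 of 9745, counts that allow shares of up to 0.0455% and 0.0308%. Intervals and limits cover counting error only. The rule thus leaves the older sections without members, and no age comparison can be made within muscle-rich spots. The 6 genes made up 3.06 to 32.9% of a muscle-rich spot's UMIs in section 1 (median 11.1%) and 3.01 to 31.3% in section 2 (median 14.9%). Just outside the threshold, the highest spots stood at 2.96% and 2.99%, and 20 and 26 spots lay between 1 and 3%. The median muscle-rich spot had 8124 UMIs in section 1, near the 8038.5 of other spots, and 4458 in section 2 against 6278. Median genes per spot were 2933 against 3536.5 and 1900 against 2930. The sums over muscle-rich spots held 453583 and 376622 UMIs, 1.11% and 1.27% of each section, so that levels in them are far less precise than in the other spots (40230771 and 29254968 UMIs).

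Position on the slide was not used by the rule. All 55 and all 61 muscle-rich spots bordered another muscle-rich spot among the 6 neighbours of the grid, against 0.690% and 0.898% of other spots. They formed 1 patch in section 1 and 2 separate patches in section 2, a larger one of 36 spots and a smaller one of 25. Spots at the edge of the tissue made up 30.9% and 32.8% of muscle-rich spots and 12.0% and 12.5% of other spots. With 2 sections no test of these shares was run.

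**Figure D1:**
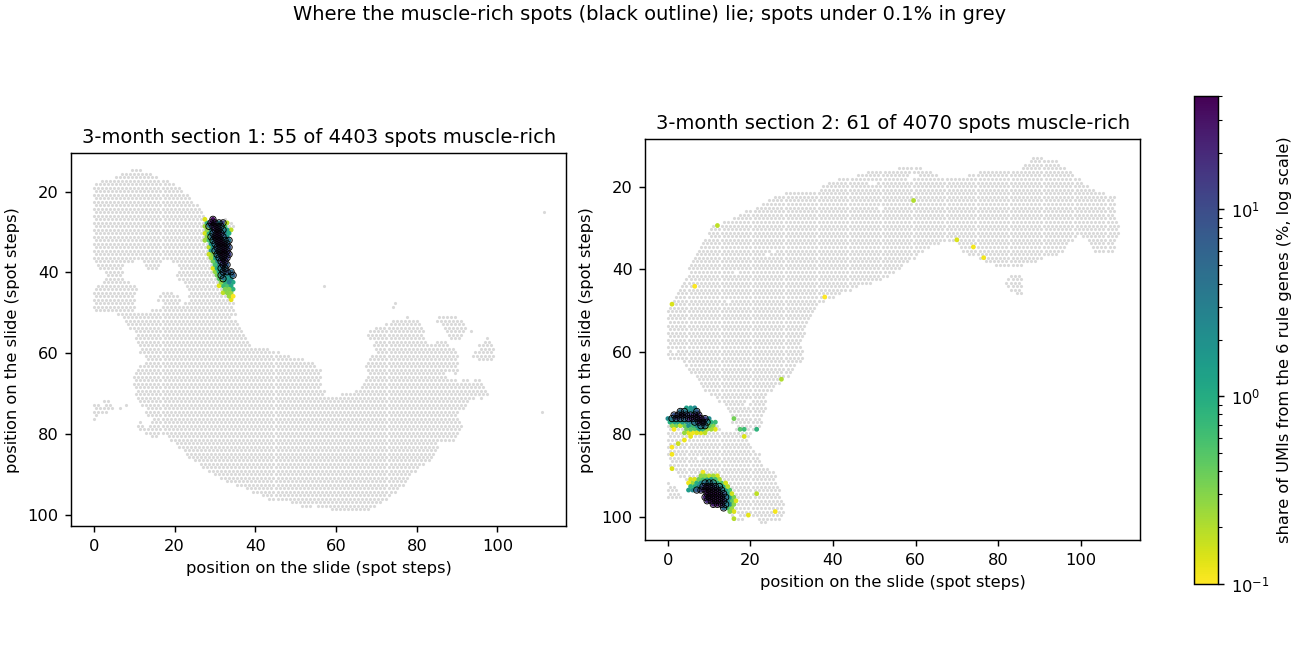
Position of every spot under tissue in the 3-month sections, coloured by the percent of its UMIs from the 6 rule genes (log scale, spots under 0.1% in grey), with muscle-rich spots outlined in black. The 55 muscle-rich spots of section 1 form 1 patch, and the 61 of section 2 form 2 separate patches.

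The 6 genes were lower the farther a spot lay from the patches. Levels are given in CPM, a gene's UMIs scaled to 1000000 UMIs in all. In section 1 the 6 genes stood at 11103 CPM in spots 1 step away, 3231 at 2 steps, 1068 at 3 and 122 at 6, and at 26.3 from 7 steps on. In section 2 the values were 14374, 3736, 657 and 130.1, and 38.4 from 7 steps on. Both sections thus had about the same profile, and 92.3% and 95% of all UMIs of the 6 genes lay inside the patches. Spots next to a patch thus lay above the distant level while below the threshold of the rule. The pan-epithelial list (keratins and junction proteins of the ducts) stood low around the muscle of section 2, at 47.1 and 79.2 CPM 1 and 2 steps away against 665 from 7 steps on. In section 1 it was uneven. It stood at 449 in the first ring outside the patch, but at 247 at 2 steps, 336 at 3, 855 at 4 and 218 at 5, against 643. Fat reached up to the muscle in both sections: the adipocyte list was at 111546 and 115637 CPM 1 step away and at 110462 and 128481 from 7 steps on.

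**Figure D2:**
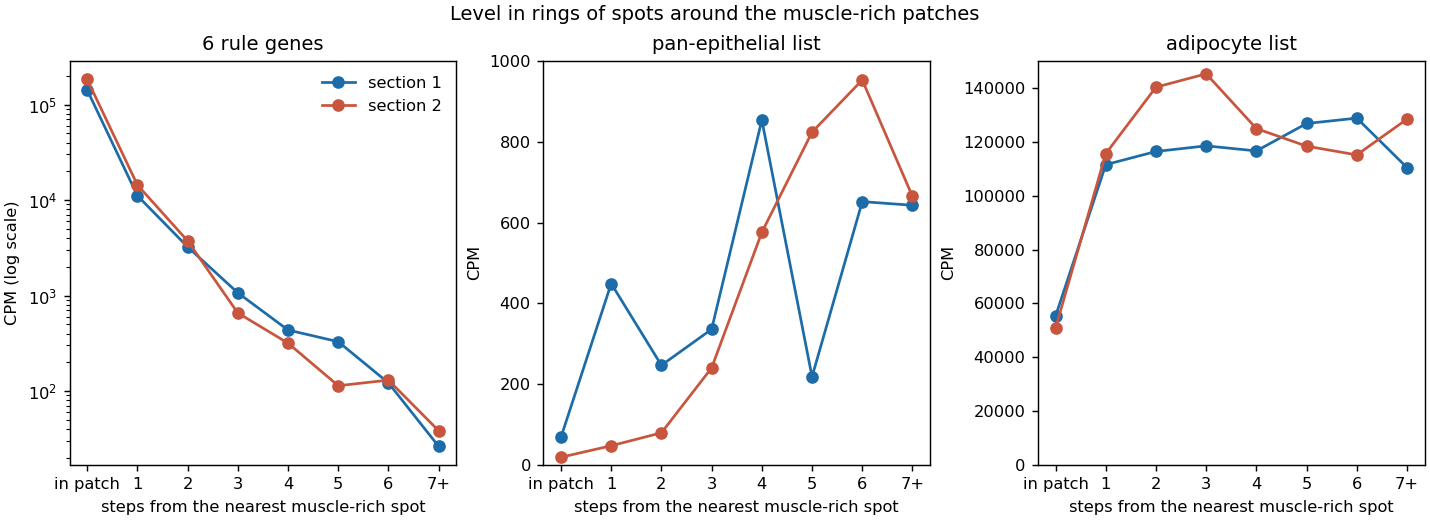
CPM (vertical axes; logarithmic on the left, from 0 otherwise) by distance in grid steps from the nearest muscle-rich spot, for the 6 rule genes, the pan-epithelial list and the adipocyte list; each point is the sum over a ring of spots in 1 section. The 6 genes go in sections 1 and 2 from 141981 and 183115 in the patches to 26.3 and 38.4 from 7 steps on, while the adipocyte list is near its distant level 1 step out.

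The 6 genes themselves are described without a test, since they chose the spots. Myh4 stood at 36661 and 44841 CPM in the muscle-rich spots of sections 1 and 2 and 29.5 and 23.3 in the other spots. Acta1 stood at 34653 and 47613 against 41.0 and 52.8, and Ckm at 27199 and 33909 against 21.1 and 16.3. Mylpf (17452 and 19821 against 16.7 and 12.6), Pvalb (15272 and 20007 against 13.1 and 9.54) and Atp2a1 (10743 and 16924 against 12.0 and 9.47) followed. Every one of the 6 was higher in section 2 than in section 1, with both patches of section 2 summed. By patch, the 6 genes together stood at 141981 CPM in section 1, 191220 in the larger patch of section 2 and 141743 in the smaller. The smaller patch was thus not above section 1 in this sum. Levels of different genes are not compared, because each gene is read by its own probes. The genes of the 10 fibre lists and the 6 rule genes together gave 26.0% and 36.8% of UMIs in muscle-rich spots and 2.67% and 2.52% in other spots.

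For all other genes, UMIs were summed per section over muscle-rich and over other spots and tested with edgeR (section as a block, Benjamini-Hochberg adjustment, threshold 0.05), with the 6 rule genes left out. Of 18991 genes tested, 657 were higher (3.46%) and 411 lower (2.16%) in muscle-rich spots, 1068 in all (5.62%). These shares are the background for the edgeR counts of every list below. The count moved with the tool and with single sums: DESeq2 called 667 (3.51%), of which 79.9% were higher against 61.5% here, so that 2.81% of genes were higher and 0.706% lower. With limma-voom 172 were called (0.906%), with 0.727% of genes higher and 0.179% lower. Leaving out the muscle-rich sum of section 1 gave 1332 and that of section 2 651, and leaving out the other-spot sum of section 1 gave 492 and that of section 2 459. The median log2 ratio was -0.26 over all genes tested and -0.02 over the 6120 with at least 20 UMIs in muscle-rich spots. The spots were chosen as muscle by 6 genes of these same spots, so nothing is read from the counts of fibre genes below, and a lower share of other tissues is in part fixed by that choice. Where a list is set beside the other spots near the muscle, 3 to 6 steps away, 8302 genes were tested, of which 8.68% were called, 6.62% higher and 2.06% lower.

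**Figure D3:**
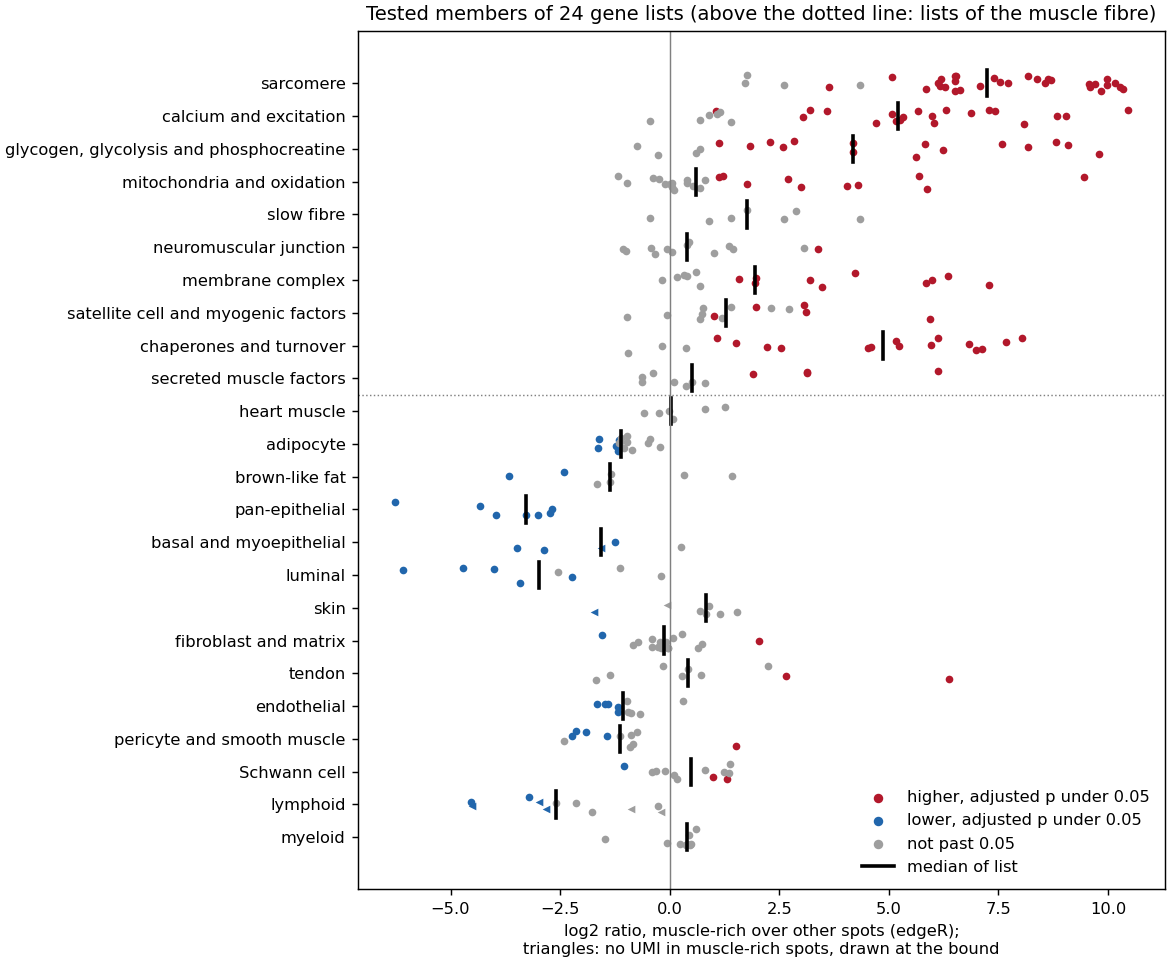
Log2 ratio of every tested member of 24 gene lists (edgeR, muscle-rich over other spots; red higher, blue lower, grey not past an adjusted p of 0.05; bars: list medians with genes at their bound; triangles: genes with no UMI in muscle-rich spots, drawn at their bound). The sarcomere list has a median of 7.24 drawn this way, the pan-epithelial list -3.28 and the lymphoid list -2.60.

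The genes of the muscle fibre outside the rule are given first, beginning with the sarcomere, as a description of spots chosen for muscle. Of 37 sarcomere genes tested, 30 were higher and none lower (3.46% of all genes were higher), with a median log2 ratio of 6.63. Of the fast troponin genes, Tnnc2, the calcium-binding subunit, stood at 15144 and 21876 against 19.8 and 16.3 CPM (log2 ratio 10.34 ± 0.82 (SE)), Tnnt3, the tropomyosin-binding subunit, at 8809.9 and 13860 against 13.2 and 9.95, and Tnni2, the inhibitory subunit, at 2707 and 4925 against 6.07 and 5.20. In each case both muscle-rich sums lay far above both other sums. Titin (Ttn), the spring that spans the sarcomere, stood at 4954 and 7862 against 8.75 and 8.58, and its cap at the Z-disc, Tcap, at 1135 and 3391 against 2.98 and 3.52. Actn3, the alpha-actinin of fast fibres, stood at 3309 and 4742 against 5.79 and 4.34 (log2 ratio 9.97 ± 0.59 (SE)). Of the myosin-binding proteins, Mybpc2, the fast form, stood at 3307 and 3916 against 5.20 and 3.97 and Mybph at 611 and 385 against 0.646 and 0.444 (log2 ratio 10.16 ± 0.44 (SE)). The 10 genes with the largest log2 ratios were Casq1, Tnnc2, Tnnt3, Mybph, Mybpc2, Actn3, Ttn, Pgam2, Tnni2 and Tcap, from 10.46 down to 9.60, among called genes with at least 100 UMIs. Of the sarcomere genes described here, Tnnc2, Tnnt3, Tnni2, Ttn, Tcap, Actn3, Mybpc2 and Mybph were called whichever of the 4 sums was left out.

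The machinery that couples excitation to calcium release followed. Of 26 genes tested, 20 were higher and none lower (3.46% of all genes were higher), with a median of 5.22. Casq1, the calcium store protein of fast fibres, stood at 2251 and 3776 against 3.38 and 1.98 CPM (log2 ratio 10.46 ± 0.58 (SE)). Ryr1, the calcium release channel, stood at 1120 and 1662 against 3.33 and 3.25, and Trdn, which anchors calsequestrin to it, at 619.5 and 953 against 2.16 and 2.12. Sypl2, a protein of the triad junction, stood at 192 and 356 against 1.04 and 1.47. These genes were separated between the spot classes in both sections.

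Enzymes of anaerobic energy supply were high. Of 19 genes of glycogen, glycolysis and phosphocreatine, 15 were higher and none lower (median 4.18), where 3.46% of all genes were higher. Pygm, which breaks down glycogen in muscle, stood at 3417 and 5132 against 10.4 and 9.23 CPM. The muscle forms of phosphoglycerate mutase (Pgam2, 1660.1 and 2804 against 3.18 and 3.04) and enolase (Eno3, 4848 and 7804 against 26.4 and 28.6) and the AMP deaminase Ampd1 (357 and 560.2 against 1.29 and 1.23) were among the largest ratios. Of 24 genes of mitochondria and oxidation, 10 were higher and none lower in edgeR, with a median of 0.61. DESeq2 called 9 higher and 2 lower, Cd36 and Lpl. With limma-voom 1 was higher, Cox6a2, and 0 were lower. The called ones included muscle forms such as Cox6a2, a subunit of cytochrome oxidase, at 1309.6 and 2637 against 2.98 and 3.90. Cpt1b, which admits fatty acids to mitochondria, stood at 99.2 and 223 against 17.5 and 5.50. Cpt1b was not called without the muscle-rich sum of section 2 (edgeR adjusted p = 0.0624). The list sum was lower in the muscle-rich spots of section 1 and higher in those of section 2, at 12809 and 19096 CPM against 16849 and 16355.

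Genes that maintain the fibre were the next group. Of 18 genes of chaperones and turnover, 15 were higher in edgeR (3.46% of all genes were), 14 in DESeq2 and 9 in limma-voom. The ubiquitin ligase Trim63 stood at 231 and 358 against 1.34 and 1.47 CPM and the myosin chaperone Unc45b at 198 and 297 against 2.46 and 2.39. Trim54 (245 and 608 against 2.46 and 2.39) and Klhl41 (227 and 390.3 against 2.59 and 2.91), whose products act at the sarcomere, were also called. Of 16 genes of the dystrophin complex and membrane, edgeR and DESeq2 each called 10 higher and limma-voom 3. Among them were the membrane anchor Ank1 (503 and 544 against 4.65 and 4.00) and the sarcoglycan Sgca (94.8 and 141 against 2.39 and 2.77). Trim72, which patches torn membrane, stood at 44.1 and 138 against 1.72 and 1.61. Of 15 genes of satellite cells and myogenic factors, limma-voom called 1 higher, DESeq2 4 and edgeR 5. They included the transcription factors Myf6 (61.7 and 165 against 2.04 and 2.36) and Mef2c (154 and 244 against 28.3 and 31.3), while Pax7, which defines satellite cells, had 3 UMIs, a ratio of 1.36 (95% exact interval 0.279 to 4.05). Myog, the differentiation factor, had 4 and 6 UMIs. Leaving out 1 of the 4 sums ended the call of Myog (adjusted p up to 0.160, without the muscle-rich sum of section 2).

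Over all genes tested 3.46% were higher, so nothing is read from 1 call among 14 genes of the neuromuscular junction. That gene was Rapsn, which clusters acetylcholine receptors (4 and 7 UMIs, log2 ratio 3.38 ± 1.00 (SE), edgeR adjusted p = 0.0169). It did not pass without the muscle-rich sum of section 2 (adjusted p = 0.157). Of 13 secreted factors, DESeq2 called 2 higher and limma-voom 1. In edgeR 4 were higher. Mstn, the growth-limiting myostatin, stood at 44.1 and 114 against 1.34 and 1.33 CPM. The others were high in 1 section each: Fndc5, the precursor of irisin, at 4.41 and 42.5 against 2.98 and 2.91, Ostn, a peptide of muscle and bone, at 22.0 and 2.66 against 1.72 and 2.09, and the growth factor Igf2 at 46.3 and 10.6 against 9.82 and 8.99. Their edgeR adjusted p values were 0.696 for Fndc5 without the muscle-rich sum of section 2, and 0.721 for Ostn and 0.659 for Igf2 without that of section 1.

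The 3 patches differed in their fast myosin heavy chains. The genes set side by side between patches were chosen after their values were seen. The IIB heavy chain Myh4 was abundant in all of them, at 36661 CPM in section 1 (16629 UMIs), 46106 in the larger patch of section 2 (14520) and 38382 in the smaller (2368). The IIX heavy chain Myh1 was at 2.20 CPM in section 1 (1 UMI), 660.5 in the larger patch of section 2 (208) and 875 in the smaller (54), against 2.63 and 3.14 in other spots. Section 1 was thus at the level of tissue without muscle, and its exact 95% interval (0.0558 to 12.3) lay far below those of both patches of section 2 (574 to 757 and 658 to 1142). The IIA heavy chain Myh2 was at 2.20 CPM in section 1 (1 UMI), 0 in the larger patch of section 2 (0) and 2237 in the smaller (138), against 1.22 and 1.74 in other spots. Only the smaller patch of section 2 stood out, with an interval of 1879 to 2643, while that of the larger patch in the same section ended at 11.7. Each patch is a single piece of tissue, so no test was run, and these intervals cover counting error only.

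Counts per spot also set section 1 apart for Myh1 and the smaller patch of section 2 apart for Myh2. Myh1 was seen in 1 of 55, 21 of 36 and 14 of 25 spots, and Myh2 in 1, 0 and 21. Myh1 was uneven within the larger patch, where single spots held 69 and 42 UMIs and some spots none. Other spots of section 2 had a UMI of Myh1 in 2.12% and of Myh2 in 1.22%, at a median of 6278 UMIs against 2561 in the smaller patch. In that patch 13 of 25 spots held both Myh1 and Myh2, and 24 held Myh4, so the heavy chains overlapped spot by spot. A spot can span several fibres, so mixed fibres and neighbouring fibres cannot be told apart.

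Several genes tied to oxidative fibres were also highest in the smaller patch of section 2. Myoglobin (Mb), which stores oxygen, was at 13.2 CPM in section 1 (6 UMIs), 63.5 in the larger patch of section 2 (20) and 1378 in the smaller (85), with intervals of 4.85 to 28.8, 38.8 to 98.1 and 1100.5 to 1704 that do not overlap. The fatty acid carrier Fabp3 was at 81.6 CPM in section 1 (37 UMIs), 222 in the larger patch of section 2 (70) and 1588 in the smaller (98). Actn2, an alpha-actinin not confined to slow fibres, was at 8.82 CPM in section 1 (4 UMIs), 108 in the larger patch of section 2 (34) and 697 in the smaller (43). Mybpc1, the slow myosin-binding protein, was at 88.2 CPM in section 1 (40 UMIs), 756 in the larger patch of section 2 (238) and 1167 in the smaller (72). The small heat shock proteins Cryab (388, 429 and 1669) and Hspb7 (28.7, 88.9 and 567) were also highest in the smaller patch. Mybph ran the other way, at 611, 425 and 178 CPM. The mitochondria and oxidation list as a whole summed to 12809 CPM in section 1, 18598 in the larger patch of section 2 and 21638 in the smaller, against 16849 and 16355 in other spots, so that section 1 lay below them and both patches of section 2 above. That sum includes Cd36 and Lpl, which DESeq2 called lower in muscle-rich spots, so it is not a level of muscle forms alone. The pyruvate dehydrogenase kinase Pdk4 was at 298, 324 and 989.

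Some genes of the slow fibre had no UMI in the patches, and others had a few. Myh7, Tnnc1, Tnni1 and Myl3, the heavy chain, troponins C and I and a light chain of slow fibres, were at 0 in all 3. These counts allow up to 6.61 CPM in section 1, 9.53 in the larger patch of section 2 and 48.6 in the smaller. Other spots were below those limits too (Myh7 1.27 and 1.95), so no fold is given. Some slow-fibre genes were seen in the smaller patch, where the light chain Myl2 had 8 UMIs, Tnnt1 3 and Ankrd2 7, against 0, 0 and 0 in section 1. The slow-fibre list as a whole stood at 181, 165 and 681 CPM in the 3 patches, against 311 and 323 in other spots, so that only the smaller patch was above them. Of 9 slow-fibre genes tested none passed in edgeR, 2 were higher at an unadjusted p under 0.05, DESeq2 called 1 (Myl2) and limma-voom 0. Atp2a2, a calcium pump on this list, had the most UMIs of the list (172 and 169.9 against 294 and 307 CPM), at 172 CPM in section 1, 152 in the larger patch of section 2 and 259 in the smaller. In other spots it gave 11811 of the 12518 list UMIs of section 1 and 8970 of 9438 in section 2. The list level of other spots is thus mostly that of Atp2a2, and not a level of slow fibres. Casq2, the calcium store protein of slow fibres, stood at 4.41 and 10.6 against 5.00 and 4.96 CPM. The embryonic and neonatal heavy chains Myh3 and Myh8 had 0 UMIs in the patches. Of 7 heart genes none passed in edgeR, at an unadjusted p under 0.05, in DESeq2 or in limma-voom, with the cardiac troponin Tnni3 at 2 UMIs and the atrial light chain Myl7 at 1.

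**Figure D4:**
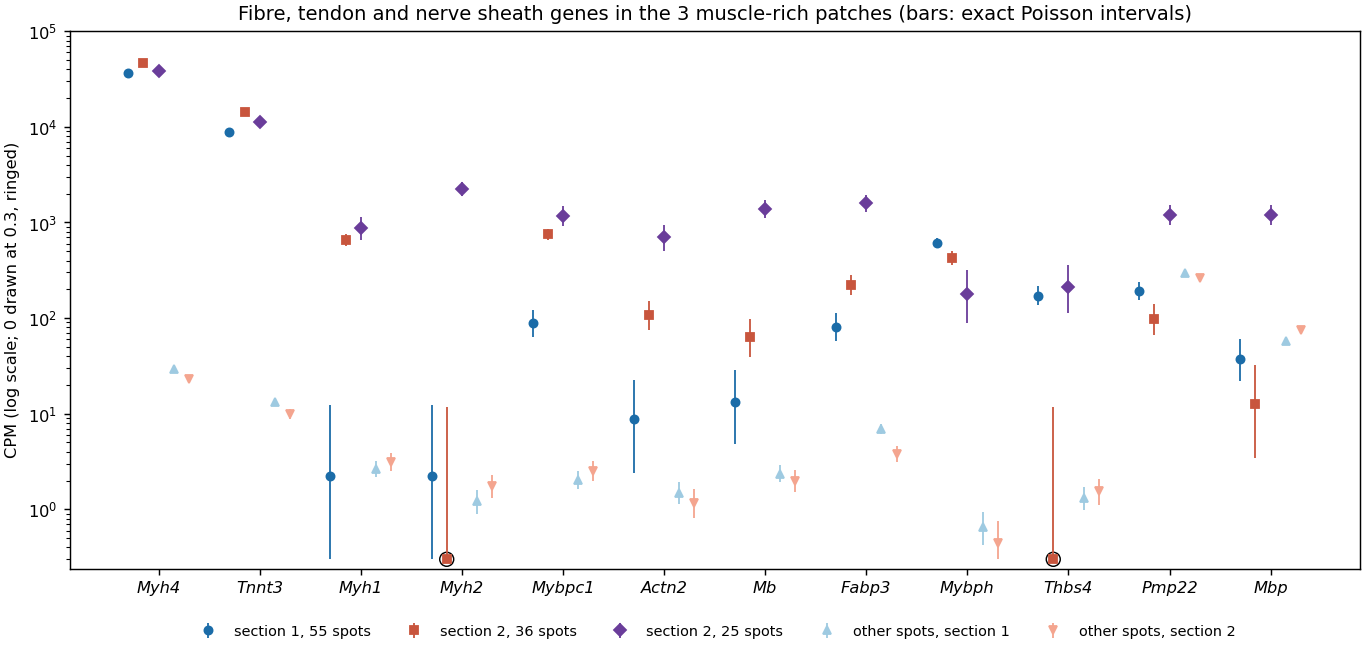
CPM (log scale) of 12 genes in the patch of section 1 (55 spots), the patches of section 2 (36 and 25 spots) and the other spots of each section, with exact 95% Poisson intervals; 0 is drawn at 0.3 and ringed, and intervals are cut there. Myh4 and Tnnt3 are high in all 3 patches, Myh1 separates section 2 from section 1, and Myh2 and Mbp stand out in the 25-spot patch alone.

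Genes of the mammary epithelium were scarce in the muscle-rich spots. All 7 pan-epithelial genes tested were lower (2.16% of all genes were lower), with a median log2 ratio of -3.28. The list summed to 31 and 7 UMIs, or 68.3 and 18.6 CPM, against 635 and 660.3. Epcam, an adhesion molecule of epithelia, stood at 13.2 and 2.66 against 153 and 184 (log2 ratio -3.97 ± 0.46 (SE), edgeR adjusted p = 3.90e-16). Keratin 8 (Krt8) had 1 UMI, a ratio of 0.0102 (95% exact interval 0.000258 to 0.0567). Of 10 luminal genes 5 were lower, among them the prolactin receptor Prlr at 4.41 and 7.97 against 218 and 186 (log2 ratio -4.72 ± 0.49 (SE), edgeR adjusted p = 4.86e-20), with lactotransferrin (Ltf) at 3 UMIs, a ratio of 0.0484 (95% exact interval 0.00998 to 0.141), and the growth factor Areg at 1, a ratio of 0.0115 (95% exact interval 0.000292 to 0.0642). Of 5 basal genes 4 were lower, with the basal keratins Krt14 and Krt5 at 2 UMIs each and the oxytocin receptor Oxtr at 44.1 and 15.9 against 127 and 49.8. DESeq2 called 4 of the pan-epithelial, 3 of the luminal and 0 of the basal genes lower, and limma-voom 1, 3 and 0. With genes at 0 UMIs at their bound, the median was -2.98 for the luminal and -1.57 for the basal list. Set against spots 3 to 6 steps away, all 5 pan-epithelial genes with enough counts were still lower, as were 2 of 4 luminal and 1 of 2 basal genes (2.06% of all genes). Epcam, Krt8, Prlr, Ltf and Areg were called whichever of the 4 sums was left out, and the call ended for Krt14 (adjusted p up to 0.124, without the other-spot sum of section 2), Krt5 (adjusted p up to 0.0887, without the muscle-rich sum of section 1) and Oxtr (adjusted p up to 0.965, without the other-spot sum of section 1).

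The 10 genes with the lowest fitted ratios all had 0 UMIs in muscle-rich spots, so their order rests on the fit. Put at their bounds, those named here had log2 ratios between -4.50 and -2.21, all above the fitted -4.72 of Prlr. Taking 3 counts over both sums as the limit, the B cell genes Cd79a and Ms4a1 were at least 22.7 and 7.03-fold lower, the light chain gene Iglc3 at least 6.86-fold and the lymphoid factor Ikzf3 at least 4.63-fold. Genes of epithelia were lower as well: Lgals7 (at least 7.20-fold), the junction receptor Cxadr (6.13), the protease inhibitor Slpi (5.72), Clca3a2 (5.28) and Irx2 (4.76). Of the 9 named here DESeq2 called only Slpi. Leaving out 1 of the 4 sums ended the call of Cd79a (adjusted p up to 0.264, without the muscle-rich sum of section 1), Ms4a1 (adjusted p up to 0.195, without the muscle-rich sum of section 1), Iglc3 (adjusted p up to 0.471, without the muscle-rich sum of section 1), Ikzf3 (adjusted p up to 0.269, without the muscle-rich sum of section 1), Lgals7 (adjusted p up to 0.0968, without the other-spot sum of section 2) and Clca3a2 (adjusted p up to 0.0804, without the muscle-rich sum of section 1). Against 2.16% of all genes, 5 of 11 lymphoid genes were lower. Their median was -4.53 as fitted and -2.60 with genes at 0 UMIs put at their bound. DESeq2 called 1 of them lower and limma-voom 3. The lymphoid list was also low around the muscle, at 31.8 and 39.2 CPM 1 step away, against 201 and 382 from 7 steps on, and none of its genes had enough counts to be tested 3 to 6 steps away.

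Fat genes were present in the muscle-rich spots at a lower share. Of 15 adipocyte genes 5 were lower and none higher in edgeR (2.16% of all genes were lower), with a median of -1.10. DESeq2 called 10 lower, where it called 0.706% of all genes lower, and limma-voom 0. The list summed to 55249 and 50802 CPM against 110990 and 128390. Scd1, the desaturase of fat synthesis, stood at 3303 and 1383 against 10526 and 6778 (log2 ratio -1.62 ± 0.48 (SE), edgeR adjusted p = 0.0184), and Thrsp, a regulator of that pathway, at 456 and 252 against 1606 and 1129 (log2 ratio -1.62 ± 0.35 (SE), edgeR adjusted p = 0.000169). The lipid droplet protein Cidec (635 and 679.7 against 1698 and 2280.3) and Acsl1 (278 and 244 against 684 and 853), which activates fatty acids, also passed. Each of the 4 lost its call without 1 of the 4 sums: Scd1 (adjusted p up to 0.625, without the other-spot sum of section 1), Thrsp (adjusted p up to 0.321, without the other-spot sum of section 1), Cidec (adjusted p up to 0.827, without the other-spot sum of section 2) and Acsl1 (adjusted p up to 0.711, without the other-spot sum of section 2). Against spots 3 to 6 steps away 2 of 15 passed, Scd1 and Thrsp. The patches differed here as well: the list was at 55249 CPM in section 1, 57149.9 in the larger patch of section 2 and 18397 in the smaller. Of 7 brown-like fat genes Cidea (6.61 and 2.66 against 107 and 37.5; log2 ratio -3.65 ± 0.56 (SE), edgeR adjusted p = 5.89e-09) and Ucp1 were lower. Ucp1 differed between sections, at 1 and 3 UMIs, or 2.20 and 7.97 against 64.1 and 3.38 CPM, so that its direction was not shared. Both lost their calls without 1 of the 4 sums: Cidea (adjusted p up to 0.416, without the muscle-rich sum of section 2) and Ucp1 (adjusted p up to 0.804, without the muscle-rich sum of section 1).

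Genes of vessels that passed were mostly lower. Of 10 endothelial genes 5 were lower in edgeR, where 2.16% of all genes were lower. Pecam1, the junction marker of endothelium, stood at 17.6 and 18.6 against 73.5 and 72.1 (log2 ratio -1.66 ± 0.40 (SE), edgeR adjusted p = 0.00140). The tight junction gene Cldn5 stood at 52.9 and 37.2 against 152 and 153. Pecam1 was called whichever sum was left out, which ended the call of Cldn5 (adjusted p up to 0.113, without the other-spot sum of section 2). DESeq2 did not call Pecam1 (adjusted p = 0.0931). DESeq2 called 1 endothelial gene lower and limma-voom 0. Of 11 pericyte and smooth muscle genes 4 were lower, against 2 lower with DESeq2 and 0 with limma-voom, with smooth muscle actin (Acta2) at 28.7 and 21.2 against 142 and 138 (log2 ratio -2.13 ± 0.37 (SE), edgeR adjusted p = 4.69e-07). Smooth muscle myosin (Myh11) stood at 13.2 and 2.66 against 44.8 and 56.0, lower in the muscle-rich spots of both sections, and leaving out 1 of the sums ended the call of Myh11 (adjusted p up to 0.120, without the other-spot sum of section 2). Abcc9, a subunit of potassium channels found in mural cells and in muscle, was higher at 83.8 and 175 against 57.2 and 55.2 (log2 ratio 1.50 ± 0.29 (SE), edgeR adjusted p = 1.50e-05). Its adjusted p was 0.0829 without the muscle-rich sum of section 2.

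Most genes of connective tissue did not pass. Of 17 fibroblast and matrix genes 1 was higher and 1 lower, with a median of -0.12. Over all genes 3.46% were higher and 2.16% lower, so nothing is read from this count. DESeq2 called 1 each way and limma-voom 0. The higher one was Pi16, a marker of fibroblasts of fascia and adventitia, at 1151 and 258 against 251 and 117 CPM (log2 ratio 2.05 ± 0.33 (SE), edgeR adjusted p = 2.47e-08), but without the muscle-rich sum of section 1 its log2 ratio was 0.91 (adjusted p = 0.360). It was at 1151 in section 1, 139.7 in the larger and 859 in the smaller patch of section 2, and at 672 and 690.5 1 step outside. The lower one was Postn (periostin), at 309 and 127 against 638 and 934 (log2 ratio -1.54 ± 0.34 (SE), edgeR adjusted p = 0.000217). Its adjusted p was 0.0996 without the muscle-rich sum of section 2, and 0.0548 and 0.446 without the other-spot sum of section 1 or 2.

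A tendon gene was high in 2 of the 3 patches. Thbs4, a matrix protein of tendon and of the muscle attachment, stood at 172 and 34.5 against 1.32 and 1.54 CPM (log2 ratio 6.37 ± 0.41 (SE), edgeR adjusted p = 2.10e-51). By patch it had 78 UMIs in section 1 (172 CPM, in 16 of 55 spots), 0 in the larger patch of section 2 and 13 in the smaller (211 CPM, in 5 of 25 spots). Its exact intervals were 136 to 215 in section 1 and 112 to 360.3 in the smaller patch, and ended at 11.7 in the larger. It was called whichever of the 4 sums was left out. Fmod, the tendon proteoglycan fibromodulin, had 40, 0 and 1 UMIs, so its call (log2 ratio 2.66 ± 0.46 (SE), edgeR adjusted p = 4.31e-07) came from section 1: without that muscle-rich sum the log2 ratio was -1.28, and DESeq2 did not call it (adjusted p = 0.138). The other 8 tested tendon genes did not pass, and Tnmd, the marker of tendon cells, had 5, 1 and 0 UMIs.

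Myelin genes stood highest in the smaller patch of section 2. Mbp, a structural protein of myelin, had 17 UMIs in section 1, 4 in the larger patch and 74 in the smaller, or 37.5, 12.7 and 1199 CPM, against 57.4 and 75.3 in other spots. A single spot of the smaller patch held 45 of its 74 UMIs. Pmp22, a membrane protein of peripheral myelin that other cells also make, stood at 192, 98.4 and 1199 CPM, against 293 and 262. In section 1 and in the larger patch Mbp was below the other spots, and in the smaller patch above them. Mbp was called higher over the 2 sections (log2 ratio 0.99 ± 0.31 (SE), edgeR adjusted p = 0.0283), but the direction turned without the smaller patch, at -0.96. DESeq2 did not call it (adjusted p = 0.437). The direction also turned without the muscle-rich sum of section 2 (-0.58). The myelin signal went on outside the muscle: the Schwann cell list stood at 3962 CPM 1 step from the patches of section 2, against 572 in section 1. Scn7a, a sodium channel of nonmyelinating Schwann cells, was the only member lower, at 61.7 and 29.2 against 119 and 119.7 (log2 ratio -1.05 ± 0.33 (SE), edgeR adjusted p = 0.0316), and it did not pass without the muscle-rich sum of section 2 (adjusted p = 0.157).

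Myeloid genes did not pass, and skin genes were few. Of 9 myeloid genes none passed in edgeR, DESeq2 or limma-voom, while 1 was higher at an unadjusted p under 0.05. The complement gene C1qa stood at 688 and 220.4 against 416 and 338 CPM, higher in section 1 and lower in section 2, and C1qc at 384 and 183 against 252 and 238. Without the muscle-rich sum of section 2 both were called higher (adjusted p = 0.0219 and 0.0299). Of 8 skin genes Krt15 alone passed, where 2.16% of all genes were lower, so nothing is read from this count. It had 0 UMIs in muscle-rich spots and was at least 3.30-fold lower. Leaving out the muscle-rich sum of section 1 ended the call of Krt15.

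Within the patches, muscle-rich spots ranged widely in their share of muscle transcripts. Spots were split by the share of the 6 genes (3 to 10%, 10 to 20%, and 20% or more, with 27, 15 and 13 spots in section 1 and 23, 17 and 21 in section 2). The adipocyte list stood at 78091, 35451 and 35294 CPM over the 3 classes in section 1 and at 111458, 42578 and 25645 in section 2. The fibroblast list stood at 24511, 15719.9 and 9753 and at 15838, 10947 and 3939, and the endothelial list at 621, 389 and 318 and at 708, 224 and 164. Each was lowest in the spots richest in muscle, and the 6 genes are part of the total, so part of a lower share follows from the total. Sarcomere genes outside the rule ran the other way, at 31039, 87999 and 107895 in section 1 and 31877, 106240 and 141874 in section 2. The tendon list had another profile, at 237, 688 and 15.1 in section 1, with its highest value in the middle class. The Schwann cell list stood at 2167, 1022 and 243 in section 2, highest in the spots with least muscle. Within each class of section 2, Mbp had more UMIs in the smaller patch: 3 UMIs in 11 spots of the larger patch and 52 UMIs in 12 spots of the smaller at 3 to 10%, 0 UMIs in 7 spots and 17 UMIs in 10 spots at 10 to 20%, and 1 UMI in 18 spots and 5 UMIs in 3 spots at 20% or more. A single spot held 45 of the 52 UMIs, and another held 10 of the 17. The order of the classes for Mbp thus rests largely on single spots.

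**Figure D5:**
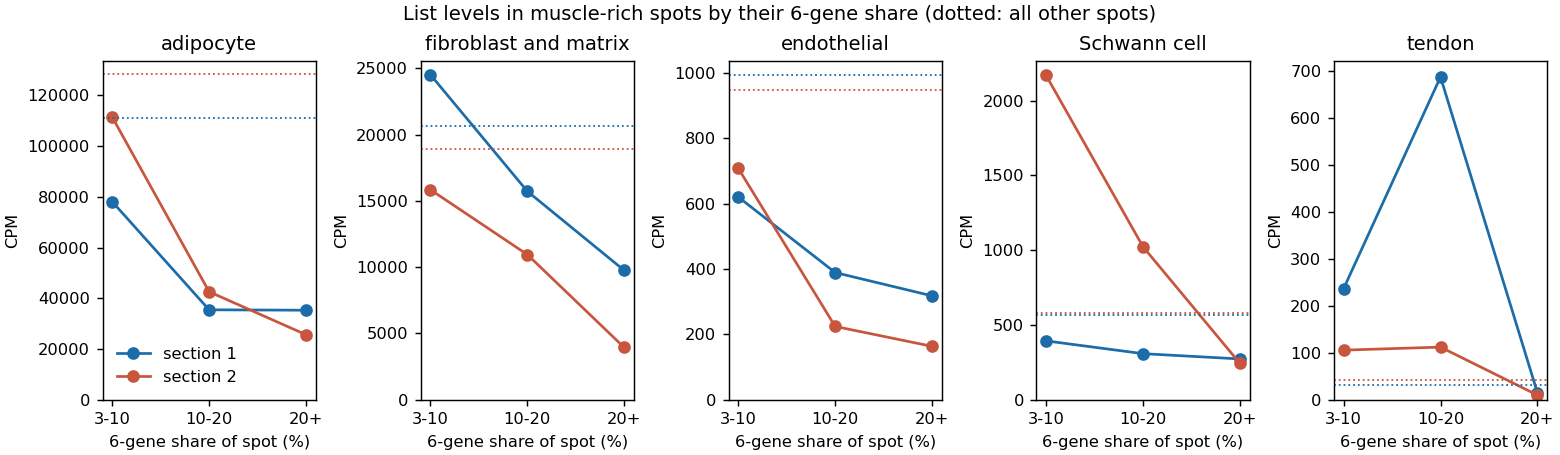
CPM of 5 gene lists in muscle-rich spots, by the share of the spot's UMIs from the 6 rule genes (horizontal axis, percent), for each section; dotted lines give all other spots of the section. The adipocyte, fibroblast and endothelial lists are lowest in the 20% class of both sections, and the tendon list of section 1 is highest between 10 and 20%.

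The authors' deposited table of spatial autocorrelation lists, for each gene and without an error, Moran's I, which scores the likeness of neighbouring spots. In the authors' deposited table Ckm had a Moran's I of 0.803 in section 1, rank 1 of 19322 genes, and 0.757 in section 2, rank 5 of 19316. Of the top 20 genes of the authors' deposited table, 12 in each section were genes of the rule or of the fibre lists, all 6 rule genes among them, against a median of 0.011 and 0.0109 over all genes. The heavy chains differed between sections in the authors' deposited table too: Myh1 had 0.00316 (rank 14965) in section 1 and 0.372 (rank 128) in section 2, and Myh2 0.00390 (rank 14396) and 0.490 (rank 59). Mb had 0.000614 and 0.338 in the authors' deposited table, and Thbs4 0.234 and 0.0816. These scores come from the same UMIs as the levels above and are no independent measurement.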

How the data were processed

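Spatial gene expression was read on 2 sections of 3-month and 2 of 18-month mammary gland. The authors deposited, per section, a matrix of raw counts (UMIs of each gene in each spot) that Space Ranger 2.0.0 wrote, per the file headers. The submitters' processing notes name the genome build mm10. No source used here gives the probe set or spot filters. The authors' deposited table of spatial autocorrelation gives Moran's I as a score, with an adjusted p-value that was not used. Spots under tissue were classed by the rule, and counts were summed per section and class (376622 to 40230771 UMIs) over 18991 genes kept by a filter on low counts. The sums were tested with edgeR 4.0.16 (R 4.3.3, quasi-likelihood, TMM scaling, section as a block, Benjamini-Hochberg). Ratios are log2 of muscle-rich over other spots, and CPM values use the UMIs of all genes. Both classes of a section come from the same slide, so the section number pairs them. DESeq2 1.42.0 and limma 3.58.1 (voom) were alternatives. On simulated counts with these 2 classes and sections, 98% and 84% of genes changed by 2 on the log2 scale up and down were called. So were 10% of those changed by 1 in either direction, and 0.0374% of 18694 unchanged genes. Changes were put only into genes with many UMIs, with the same spread for every gene and no difference between sections. Both classes had the profile of the other spots, so these shares do not carry over to genes with few UMIs or to the real spread. Named genes were the 6 rule genes, the 10 highest and 10 lowest log2 ratios among called genes with at least 100 UMIs and 1 direction in both sections, and, per list, up to 4 called genes of largest ratio or the 2 with most UMIs. Some of these are not reported here. The members, gene lists and tests were chosen with earlier results of these data known. Leaving out a sum leaves 3 sums and no section term, so the lone sum is assumed to vary like the other class. Promoter windows came from RefSeq (GRCm38.p6).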

Additional observations from a re-analysis of the deposited data

Results flagged for a closer look

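The 6 rule genes were also read in the 18-month sections, which have no muscle-rich spot and entered no comparison. They summed to 740 UMIs in section 1 and 674 in section 2, both above the limit of 3 counts that a count of 0 allows. As levels these were 38.8 and 31.9 CPM, beside 26.3 and 38.4 in the 3-month spots 7 or more steps from muscle. The UMIs were spread over 622 and 492 spots, with at most 7 and 6 in a spot and at most 1.41% and 1.89% of a spot's UMIs.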

How the results depend on the processing

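The 1068 calls became 667 with DESeq2 and 172 with limma-voom, 474 with the 25-spot patch as the muscle of section 2, and 459 to 1332 when 1 of the 4 sums was left out. With DESeq2 79.9% of calls were higher, against 61.5%. Between them, 647 of the DESeq2 calls and 171 of the limma-voom calls were among the 1068. The number of muscle-rich spots was 162 at a threshold of 1%, 66 at 10%, where 97.0% bordered another and sections 1 and 2 had 2 and 3 patches in place of 1 and 2, and 55 to 61 with 1 section alone. Without a replicate block, that is without the pairing of the 2 classes by section, 985 genes were called and 11 of 84 named genes lost their calls, Cidec, Iglc3, Ikzf3, Krt15, Krt17, Mbp, Oxtr, Scd1, Scn7a, Ucp1 and Vwf. Among named genes the log2 ratio changed sign for Casq2 (-0.018 with the 36-spot patch), Tnni3 (-0.025 with library size alone, -0.15 without the muscle-rich sum of section 2, -0.53 with the 25-spot patch), Myl7 (0.29 with limma-voom, 0.19 at 10%, -8.77 to 0.61 without 1 sum), Fmod (-1.28 to 3.59 without 1 sum), C1qa (-0.35 to 1.12 without 1 sum) and Mbp (-0.58 to 2.06 without 1 sum, -0.96 with the 36-spot patch). The cause was not tested. No sign or call of the 84 named genes changed without the filter on low counts, with the 6 genes kept in the library sizes, without other spots within 2 steps of muscle, or with spots of at least 500 UMIs alone. Of the medians of the gene lists under the alternatives, 364 moved by less than the spread between sections and 86 by more. Both comparisons with 1 patch of section 2, and the one against spots 3 to 6 steps away, were chosen after seeing the data. A test without a whole section was not run, since it leaves no spread between samples. The depth of the muscle-rich sums limits what can be seen: 3 counts correspond to 6.61 and 7.97 CPM in a section.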

Other observations

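Of the called genes, 542 of 657 higher and 371 of 411 lower belonged to no gene list. One pattern, chosen after its values were seen, concerned proteins that exist in a muscle form and in a widely expressed form, of which 9 pairs could be compared. The translation factor Eef1a2, the form of muscle and neurons, stood at 505 and 849.7 against 2.44 and 1.95 CPM, while Eef1a1 stood at 1549.9 and 979.8 against 2738 and 2523 (log2 ratio -0.73 ± 0.39 (SE), edgeR adjusted p = 0.440). The cytochrome oxidase subunit Cox6a1 was lower in muscle-rich spots, at 229 and 220.4 against 881 and 854 (log2 ratio -1.59 ± 0.34 (SE), edgeR adjusted p = 8.98e-05), where Cox6a2 was among the highest ratios. The same direction held for the phosphofructokinase of liver, Pfkl (log2 ratio -1.76 ± 0.37 (SE), edgeR adjusted p = 7.95e-05), the liver glycogen phosphorylase Pygl (log2 ratio -1.32 ± 0.32 (SE), edgeR adjusted p = 0.00124), the adenine nucleotide carrier Slc25a5 (log2 ratio -1.20 ± 0.32 (SE), edgeR adjusted p = 0.00395) and Pgam1 (log2 ratio -0.97 ± 0.31 (SE), edgeR adjusted p = 0.0344). Their muscle forms Pfkm (5.83), Pygm (9.09), Slc25a4 (2.99) and Pgam2 (9.79) all had positive log2 ratios. Cox8a was lower (log2 ratio -1.28 ± 0.33 (SE), edgeR adjusted p = 0.00363) and Cox8b higher (log2 ratio 1.23 ± 0.32 (SE), edgeR adjusted p = 0.00325), while Cox7a2 and Mylk did not pass (edgeR adjusted p = 0.733 and 0.320) where their muscle forms Cox7a1 (4.06) and Mylk2 (8.30) had positive log2 ratios. Against spots 3 to 6 steps away Slc25a5 and Pgam1 did not pass (edgeR adjusted p = 0.142 and 0.262), while Cox6a1, Pfkl, Pygl and Cox8a were still lower. DESeq2 did not call Pgam1 (adjusted p = 0.156). The lower calls ended without 1 of the 4 sums, with the highest adjusted p in parentheses, for Cox6a1 (0.151, without the other-spot sum of section 2), Pfkl (0.0777, without the muscle-rich sum of section 1), Pygl (0.589, without the other-spot sum of section 1), Slc25a5 (0.381, without the other-spot sum of section 2), Pgam1 (0.635, without the other-spot sum of section 1) and Cox8a (0.418, without the other-spot sum of section 2). The higher call ended for Cox8b (0.443, without the other-spot sum of section 2).

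Enzymes of fat synthesis, also chosen after their values were seen, were lower: Fasn, the fatty acid synthase, stood at 1878 and 897 against 8692 and 4807 CPM (log2 ratio -1.95 ± 0.46 (SE), edgeR adjusted p = 0.000744), Acaca at 796 and 242 against 2190.1 and 1169.5 (log2 ratio -1.49 ± 0.37 (SE), edgeR adjusted p = 0.00150) and Acly at 395 and 215 against 1684 and 731 (log2 ratio -1.58 ± 0.35 (SE), edgeR adjusted p = 0.000245). Without the other-spot sum of section 1 the log2 ratios were weakest, at -1.41 for Fasn, -0.81 for Acaca and -0.86 for Acly. Without the muscle-rich sum of section 2 they were -1.60, -0.83 and -1.36, and the calls ended in both cases. The calls of Fasn (log2 ratio -2.23) and Acaca (-1.68) also ended without the other-spot sum of section 2. That of Acly (-2.06) also ended without the muscle-rich sum of section 1. Against spots 3 to 6 steps away Acaca did not pass (edgeR adjusted p = 0.0521), while Fasn and Acly did (0.00798 and 0.0330). The haemoglobin genes Hbb-bs (86.0 and 311 against 697 and 1586) and Hba-a2 (81.6 and 316 against 582 and 1499) had negative log2 ratios of -2.29 and -2.14. These were -1.46 and -1.30 without the muscle-rich sum of section 1. Without the other-spot sum of section 2 they were -1.27 and -1.01, and the calls ended in both cases. The RNA-binding protein gene Rbfox1, with 20 and 18 UMIs in the muscle-rich sums, had a log2 ratio of 9.53, and desmin (Des), the intermediate filament of muscle, one of 6.03.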
